A study of Homo sapiens with 16 samples.

Results

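The regions described here are stretches of the human genome that carried called H3K27me3 in all 8 H3K27me3 libraries of a CUT&Tag study of BE2C cells, a neuroblastoma line with amplified MYCN. They were chosen by measured values. The base pairs covered by a broad H3K27me3 region (an island, as called by the SICER program) in every one of the 8 libraries were joined into pieces. Autosomal pieces of at least 2 kb and under 15 kb were kept when they lay outside a 1 Mb interval around MYCN and touched no H3K4me1 island of either control siRNA library. This left 2378 of the 3716 autosomal pieces, called members below. The members held 10.96 of 17.8 Mb, had a median width of 3800 bp (quartiles 2800 and 5600 bp) and formed 1844 loci when neighbours within 10 kb were joined, 1511 of them with 1 member. Of the other pieces, 620 touched H3K4me1, 595 were under 2 kb, 108 were 15 kb or more and 15 lay near MYCN.

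CUT&Tag uses an antibody to bring a DNA-cutting transposase to a histone mark. The 16 libraries came from 4 groups of BE2C cells, each profiled for H3K27me3 and H3K4me1 in 2 libraries per mark. In one experiment cells received a control siRNA (siCtrl) or an siRNA against the demethylase KDM6B (siKDM6B33) for 72 h. In the other they received 0.1% DMSO or 2.5 µM GSK-J4 (labelled GSKJ4), an inhibitor of KDM6 demethylases, for 72 h. All groups came from 1 established cell line, and no input or IgG library was used here.

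H3K27me3 is laid down by Polycomb repressive complex PRC2 and removed by the KDM6 demethylases. It lies over the starts of genes that a cell keeps silent, above all transcription factors, signalling molecules and receptors of other lineages, and PRC2 is known to favour DNA rich in CpG. H3K4me1 marks enhancers and the flanks of gene starts. Adrenergic neuroblastoma cells such as BE2C express noradrenergic lineage factors, while a mesenchymal neuroblastoma state is known for factors such as PRRX1 and the YAP and TEAD proteins.

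The members fell into kinds that differed in sequence, and promoters of both are shown because the signal inside members differed between them. Each stretch is the 250 bases before the canonical transcription start of its gene, read on the strand of the gene from the GRCh37 (hg19) reference, the build of the files, and it lies inside a member and outside annotated exons. Capitals mark CG dinucleotides. The first pair of sequences belongs to a dopamine receptor (DRD1) and a blood cell bHLH factor (TAL1).
DRD1 chr5:174871186-174871435 (-): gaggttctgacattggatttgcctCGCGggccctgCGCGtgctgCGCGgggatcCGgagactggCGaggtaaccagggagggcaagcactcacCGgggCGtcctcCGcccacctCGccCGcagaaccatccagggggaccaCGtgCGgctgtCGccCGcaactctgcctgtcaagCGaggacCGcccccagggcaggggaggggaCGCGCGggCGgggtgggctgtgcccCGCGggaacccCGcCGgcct
TAL1 chr1:47697898-47698147 (-): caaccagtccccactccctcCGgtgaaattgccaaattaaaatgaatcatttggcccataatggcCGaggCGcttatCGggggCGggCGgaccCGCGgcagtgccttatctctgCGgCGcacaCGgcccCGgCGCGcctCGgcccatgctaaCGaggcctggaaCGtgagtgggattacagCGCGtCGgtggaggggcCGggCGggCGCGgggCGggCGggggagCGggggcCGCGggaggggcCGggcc
A hair follicle keratin (KRT71) and a factor of pancreatic islet cells (PAX4) had members of the other kind, with few CG.
KRT71 chr12:52946930-52947179 (-): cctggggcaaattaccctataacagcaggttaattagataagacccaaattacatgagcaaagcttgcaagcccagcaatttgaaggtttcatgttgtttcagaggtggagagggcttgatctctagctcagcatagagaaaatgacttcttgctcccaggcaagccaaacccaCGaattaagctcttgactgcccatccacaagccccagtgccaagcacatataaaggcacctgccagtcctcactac
PAX4 chr7:127258197-127258446 (-): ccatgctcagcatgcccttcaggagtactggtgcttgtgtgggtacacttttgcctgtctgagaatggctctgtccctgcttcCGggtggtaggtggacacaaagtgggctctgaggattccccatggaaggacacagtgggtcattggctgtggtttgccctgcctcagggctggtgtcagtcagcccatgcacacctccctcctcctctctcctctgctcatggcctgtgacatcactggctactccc
The sequence of DRD1 held 27 CG and that of TAL1 held 30, and those of KRT71 and PAX4 held 1 each.

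The libraries differed in ways that bear on what follows. H3K27me3 islands covered 53.4 and 53.9 Mb in the siCtrl libraries, 89.4 and 86.9 Mb in siKDM6B33, 58.0 and 64.3 Mb in DMSO and 66.4 and 72.1 Mb in GSKJ4. GSKJ4 library 1 stood apart, with 16531 islands of median width 3 kb against 7123 to 7941 islands of 6.6 to 7.4 kb in the other 3 libraries of its experiment. It set 61.8% of the left and 58.2% of the right edges of members, and 35.5% of members were equal to its island, against 1.05% to 2.82% in the other 7 libraries. In the siRNA experiment 8.94% to 11.4% of the H3K27me3 island length lay under H3K4me1 islands of the library with the same group and number, and in the compound experiment 50.1% to 67.0%, in the DMSO controls as well. The totals of reads were not given in the files used here.

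Members were described by the gene starts they held. A start of a protein-coding gene lay in 1090 members (45.8%), and 470 members lay inside a gene without holding a start. Another 659 members (27.7%) lay between protein-coding genes and held neither a protein-coding nor a lncRNA start. Of 18884 autosomal protein-coding genes, 1095 had a start in a member, a background of 5.80% for the lists that follow. The lists overlap in part, and their members were chosen by H3K27me3, so the counts are a description without a test. The counts also rest on siCtrl alone being kept free of H3K4me1. With DMSO kept free as well, 426 genes were left (2.26%), with 4 of 167 homeobox genes outside the HOX clusters (2.40%), 0 of 28 mesenchymal-state genes, 1 of 19 WNT genes (5.26%), 6 of 68 bHLH genes (8.82%), 13 of 123 channel genes (10.6%), 2 of 9 PAX genes, 3 of 39 HOX genes and 7 of 55 keratins (12.7%).

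**Figure D1:**
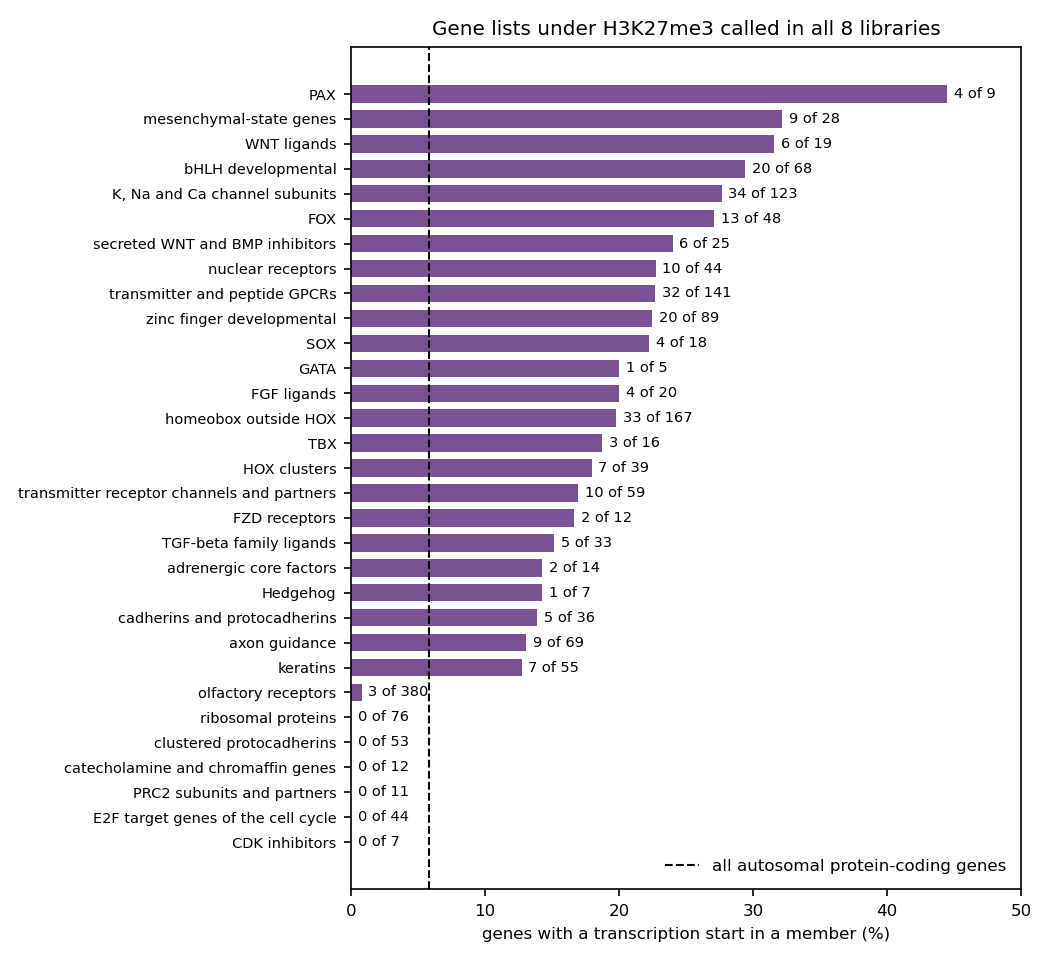
Percent of the genes of each list that had a transcription start in a member, with the counts at the bars and a dashed line at 5.80% for all autosomal protein-coding genes. PAX genes reached 44.4% and ribosomal proteins, PRC2 subunits and cell cycle genes were at 0.

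Among transcription factors, members held the starts of 4 of 9 PAX genes (44.4%), 20 of 68 developmental bHLH genes (29.4%), 13 of 48 FOX genes (27.1%), 10 of 44 nuclear receptors (22.7%), 20 of 89 developmental zinc finger genes (22.5%), 4 of 18 SOX genes (22.2%) and 33 of 167 homeobox genes outside the HOX clusters (19.8%). The small TBX and GATA families had 3 of 16 and 1 of 5. The HOX genes, which pattern the body axis, had 7 of 39 starts in members (17.9%), but 28 of 39 in any piece. Of the HOX starts outside members, 16 lay in pieces of 15 kb or more. For the other homeobox genes these counts were 91 of 167 in any piece and 33 in pieces of 15 kb or more. The broad HOX domains thus lay mostly outside the members, by the width limit of the rule. With islands within 2 kb joined first, members held 2 of 39 HOX starts (5.13%), beside 5.64% of all genes.

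Among the widest members with a protein-coding start were those of LPO (a peroxidase of milk and saliva, 14.8 kb), SOX14 (a neural SOX factor, 14.6 kb), NKX2-1 (a thyroid, lung and forebrain factor, 14.4 kb), and IRF8 (a myeloid factor) and TAL1 (14 kb each). They were followed by PRRX1 and the sodium channel subunit gene SCN4B at 13.8 kb each, and by the forebrain homeobox gene GSX1 and the cardiac pacemaker channel gene HCN4 at 13.2 kb each. The locus with most members, 10, lay at chr6:326401-396200 over 69.8 kb and held the start of IRF4, a factor of lymphocytes and pigment cells.

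The height of the signal was read from narrow peaks, a second kind of call made on the same libraries by MACS2. The summit pileup is the number of overlapping tags at the top of the highest peak in the member. It was not scaled between libraries, so a level holds within its library. The member of SOX14 at chr3:137477001-137491600 had summits of 39 and 31 tags in siCtrl, 21 and 21 in siKDM6B33, 15 and 13 in DMSO and 10 and 12 in GSKJ4. That of PAX1, a factor of the sclerotome, at chr20:21682001-21691600 had 43 and 51, 53 and 55, 26 and 25, and 24 and 20 tags in the same order. Both had a peak in every library. The median summit over all members was 11 and 11 tags in siCtrl, 12 and 12 in siKDM6B33, 5 and 6 in DMSO and 7 and 5 in GSKJ4.

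Signalling ligands had 6 of 19 WNT genes (31.6%), 4 of 20 FGF genes (20.0%), 1 of 7 genes of the Hedgehog pathway (HHIP, a Hedgehog-binding inhibitor) and 5 of 33 ligands of the TGF-beta family (15.2%) with starts in members. Secreted inhibitors of WNT and BMP signals had 6 of 25 (24.0%), and the WNT receptors of the FZD family 2 of 12 (16.7%). These groups were not particular to members. The pieces that touched H3K4me1 held starts of 432 genes in all. Among them were 8 WNT, 7 inhibitor, 5 TGF-beta, 3 Hedgehog, 3 FGF and 1 FZD genes. All 6 WNT members had a narrow peak in all 8 libraries. WNT5A, a ligand of the planar polarity branch, had summits of 23 and 23 tags in siCtrl, 17 and 17 in siKDM6B33, 13 and 17 in DMSO and 12 and 10 in GSKJ4. BMP4 had 29 and 33, 20 and 18, 16 and 17, and 10 and 11 tags. FST, which encodes the activin antagonist follistatin, had 32 and 35, 43 and 38, 15 and 19, and 18 and 14 tags. Within each siCtrl library FST stood slightly above BMP4, and within each siKDM6B33 library further above it. Tags were not scaled between libraries, so a rise or fall after knockdown cannot be read from them.

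Of the genes for potassium, sodium and calcium channel subunits, 34 of 123 (27.6%) had a start in a member, and of the G-protein-coupled receptors for amines, peptides and other transmitters 32 of 141 (22.7%). Receptor channels and the proteins named after them had 10 of 59 (16.9%), axon guidance genes 9 of 69 (13.0%) and cadherins outside the clusters 5 of 36 (13.9%). DRD1 had summits of 35 and 33 tags in siCtrl, 29 and 29 in siKDM6B33, 18 and 19 in DMSO and 21 and 14 in GSKJ4. The alpha-1D adrenergic receptor gene ADRA1D had 22 and 22, 40 and 40, 20 and 24, and 21 and 15 tags. HCN4 had 24 and 29, 21 and 19, 23 and 16, and 16 and 12 tags. Within each siCtrl library ADRA1D thus had fewer tags than DRD1, and within each siKDM6B33 library more. None of the genes named so far with tag values passed the test of single regions given below.

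None of 76 ribosomal protein genes, 44 E2F target genes of the cell cycle, 53 clustered protocadherins, 12 catecholamine genes, 11 genes of PRC2 and its partners or 7 CDK inhibitors had a start in a member. The last 3 of these lists are so short that the background share would give less than 1 gene. Olfactory receptors had 3 of 380 (0.789%). Keratins, above the background, had 7 of 55 (12.7%), all in the chromosome 12 cluster.

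The neuroblastoma state lists served as a check of the cell type, for which only the marks at the starts could be used. Of 14 adrenergic core factors, 7 had no H3K27me3 island at the start in any library and 3 had one in all 8, INSM1, SOX11 and MYCN, the last inside the interval left out. Of 28 mesenchymal-state genes, 10 had none and 9 had one in all 8 libraries. Of 12 catecholamine genes, 5 had none and 1, PNMT, had one in all 8. The mesenchymal-state genes with starts in members numbered 9 (32.1%), against 2 of 14 (14.3%) for the adrenergic factors. They were BHLHE41, FOSL1, MEOX2, PRRX1, RUNX1, TBX18, TEAD4, TWIST2 and YAP1, and each of their members had a narrow peak in all 8 libraries. PRRX1 at chr1:170628201-170642000 had summits of 29 and 41 tags in siCtrl, 33 and 46 in siKDM6B33, 17 and 24 in DMSO and 22 and 18 in GSKJ4.

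INSM1 and SOX11 are factors of the adrenergic list, which these cells are known to use. INSM1, in a member of 2.2 kb at chr20:20348401-20350600, had summits of 14 and 11 tags in siCtrl, 12 and 18 in siKDM6B33, 5 and 7 in DMSO and 8 and 9 in GSKJ4. SOX11, in one of 3.8 kb at chr2:5830601-5834400, had 16 and 16 tags in siCtrl, none and 14 in siKDM6B33, none and 7 in DMSO and 6 and 8 in GSKJ4. In bulk libraries, a mark on few cells and a weak mark on all cells cannot be told apart, nor can 2 marks on the same and on different chromosomes.

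**Figure D2:**
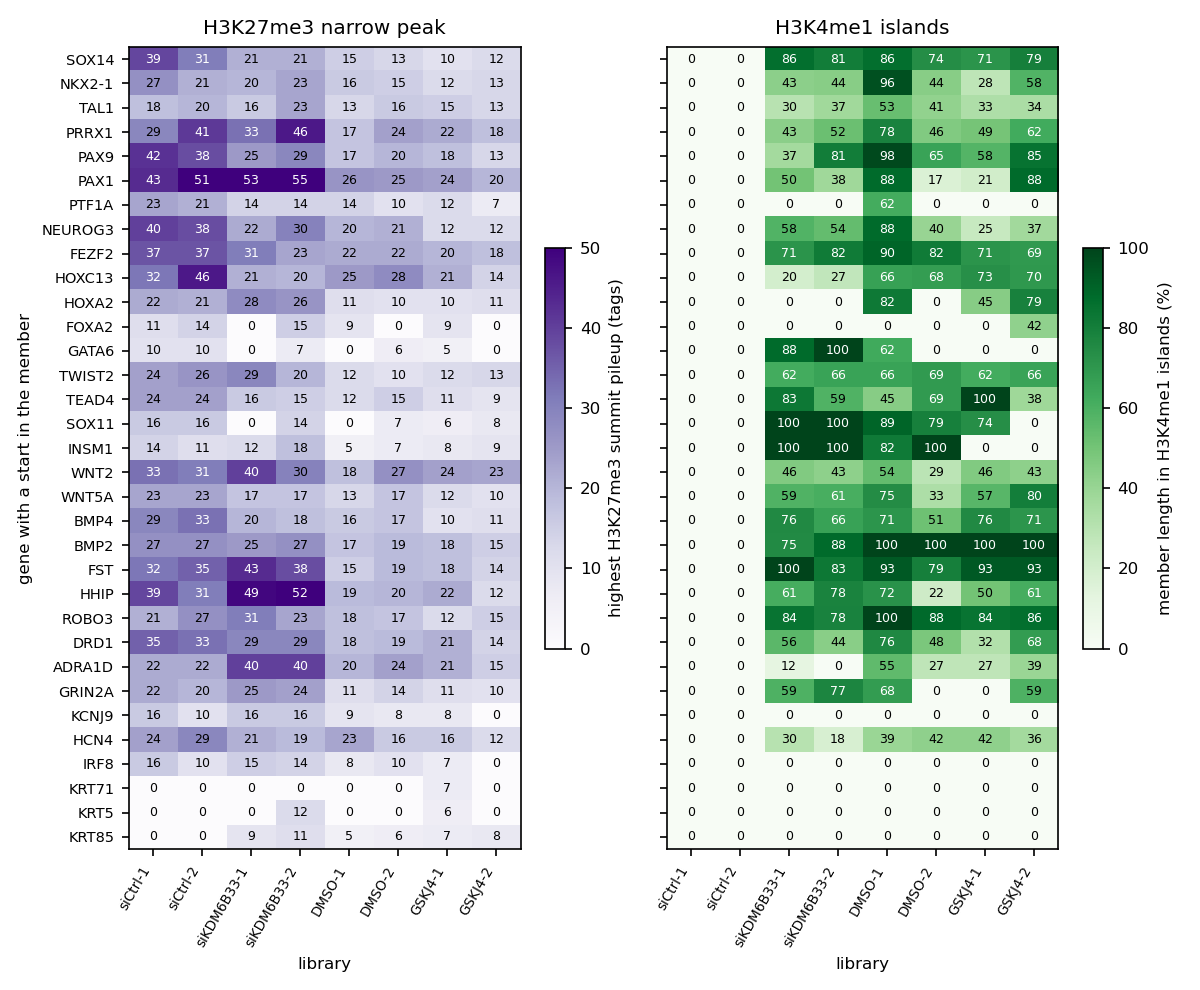
Highest H3K27me3 summit pileup in tags (left) and percent of the member's length under H3K4me1 islands (right) in each of the 8 libraries, for members that hold the start of the gene named on the vertical axis. SOX14 and PAX1 had a summit in every library, KRT71 had 1 summit of 7 tags in GSKJ4 library 1, and the siCtrl columns on the right are 0 because the rule required it.

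Of 2841 annotated autosomal miRNA genes, 17 (0.598%) lay whole inside members. RefSeq held mature sequences of 9, and those of 3 are printed because they stand at a shared member or carry a well known seed. The build of that table is GRCh38.p14, and capitals mark the seed, bases 2 to 8.
miR-449b-5p: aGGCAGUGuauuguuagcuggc
miR-449c-5p: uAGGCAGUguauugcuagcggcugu
miR-148a-3p: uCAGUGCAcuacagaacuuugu
MIR449B (chr5:54466474-54466570, minus strand, GRCh37) and MIR449C (chr5:54468090-54468181), of a family known from multiciliated cells, shared the member of CDC20B at chr5:54466401-54469800. Its summits were 16 and 11 tags in siCtrl, 9 and 10 in siKDM6B33, none in both DMSO libraries, and 8 and none in GSKJ4. The seeds of the pair hold the same run of letters shifted by 1 base. MIR148A lay in a member of 4.2 kb with summits of 7 and 9 tags in siCtrl, none in siKDM6B33 or DMSO and 6 in each GSKJ4 library. MIR3663, in a member between genes, had summits of 56 and 60, 52 and 49, 38 and 34, and 28 and 18 tags, the highest of the 17 in all libraries but GSKJ4 library 2, where MIR2276 had 19.

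The sequence of members followed their position. Members with a protein-coding start had a median G+C of 56.5% with 46.4 CpG per kb, and those without had 53.0% and 24.4 CpG per kb. A start was called CpG-rich when the 1 kb around it had a G+C of at least 50% and an observed over expected CpG ratio of at least 0.6. Of the 1007 canonical starts in members, 838 (83.2%) were CpG-rich, beside 66.1% of 18632 canonical starts in all and 82.2% of those in the pieces that touched H3K4me1. All 12 FOX genes and all 6 secreted inhibitors with canonical starts in members had CpG-rich starts, as had 28 of 33 channel subunit genes and 18 of 20 bHLH genes. None of the 7 keratins and neither of the olfactory receptor genes with a canonical start did. Among the homeobox genes 22 of 30 were CpG-rich, with PAX4, NKX2-1, PRRX1 and OTX2 among the others.

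The E-box CACGTG, the core site of MYC proteins, was searched because the line has amplified MYCN. It is its own reverse complement and was found in the 1 kb around 15.4% of the canonical starts in members, and around 18.2% of all. GAGAGA, a repeat motif, or its reverse complement, was found at 57.8% and 54.7%.

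H3K27me3 took another shape over CpG-rich starts than elsewhere. The members were split into 819 with a CpG-rich canonical start, 157 with a CpG-poor one and 1395 with none, with 7 that held both kinds left out. CpG-rich members carried a narrow peak almost throughout. The share without one was 2.69% and 2.93% in siCtrl, 2.93% and 2.93% in siKDM6B33, 13.4% and 10.3% in DMSO and 7.33% and 14.3% in GSKJ4. Members without a canonical start lacked a peak more often, in 37.4% and 37.8%, 25.7% and 25.7%, 57.2% and 54.2%, and 45.4% and 54.0% of cases. The mean difference was -35.1 percentage points, from -43.9 to -22.7 over the 8 libraries (exact sign-flip permutation test, two-sided, p = 0.0078, the smallest that 8 libraries allow). CpG-rich members also lacked a peak less often than CpG-poor ones, by a mean of -14.4 points, from -20.3 to -6.62 (same exact test, p = 0.0078, both p values 0.0078 after adjustment over the 2).

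The median summit of CpG-rich members was 16 tags in each of the 4 siRNA libraries, 9 and 9 in DMSO and 9 and 8 in GSKJ4. In members without a canonical start it was 8 and 8 in siCtrl, 10 and 10 in siKDM6B33, 0 in both DMSO libraries and 5 and 0 in GSKJ4. The islands around the latter were the wider ones in every library. Their medians were 9.2 and 9.4 kb in siCtrl and 13 and 12.6 kb in siKDM6B33, beside 6.2 and 6.4 kb and 7 and 6.8 kb around CpG-rich starts. In GSKJ4 library 1 the gap was small, 5 against 4.4 kb. The members shared a rule for their islands, so these widths carry no test.

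**Figure D3:**
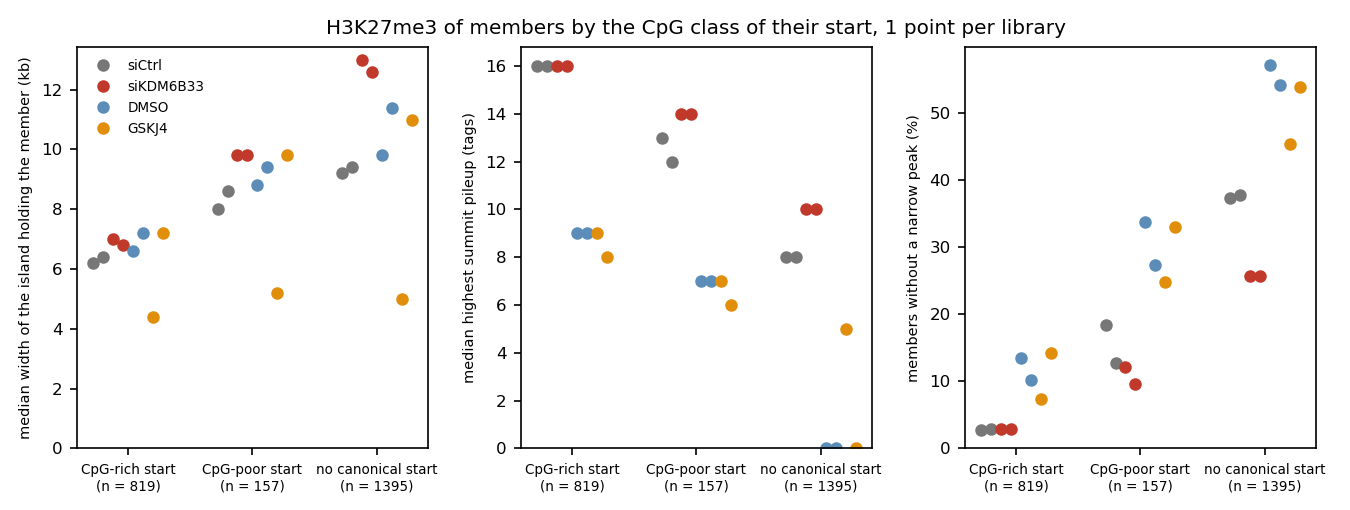
Median width of the H3K27me3 island that holds the member in kb (left), median highest summit pileup in tags (middle) and percent of members without a narrow peak (right), by the CpG class of the start, with 1 point per library. In every library, members with a CpG-rich start had the narrowest islands, the highest summits and the lowest share without a peak of the 3 classes.

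The keratin members on chromosome 12 had few narrow peaks. None of the 7 had one in all 8 libraries, 1 had none in any, and their median siCtrl summit was 0. KRT85, a hair keratin gene, had none in siCtrl, 9 and 11 tags in siKDM6B33, 5 and 6 in DMSO and 7 and 8 in GSKJ4. KRT71, at chr12:52940601-52949000, lay in islands of 10 and 12.4 kb in siCtrl, 18.6 and 19.2 kb in siKDM6B33, 11.6 and 16.2 kb in DMSO and 9.4 and 18.4 kb in GSKJ4, and had a peak in GSKJ4 library 1 only, of 7 tags. KRT5, the keratin of basal epidermis, lay in islands of 7.6 and 7.6, 23.2 and 20.8, 13.6 and 18.2, and 9 and 20.2 kb, with peaks of 12 tags in siKDM6B33 library 2 and 6 tags in GSKJ4 library 1. PAX4 had 8 and 8 tags in siCtrl, 21 and 14 in siKDM6B33, none and 4 in DMSO and none in GSKJ4.

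Where a member held 1 canonical start, its distance to the highest summit was measured. Both lie inside the same member, which limits the distance, and no share for other positions was computed. The highest summit was within 1 kb of the start in 73.5% to 80.1% of such members with a peak, over the 8 libraries. It was within 500 bp in 49.3% to 55.8%. The median distance was 421 to 512 bp, and the summit was downstream of the start in 60.5% to 65.1%. Over all members, 974 (41.0%) had a narrow peak in every library and 115 (4.84%) in none. Just inside the lower width limit, 123 members of 2000 bp had a median highest summit, averaged over the 2 libraries of a group, of 10 tags in siCtrl, 10.5 in siKDM6B33, 5 in DMSO and 5.5 in GSKJ4. Just outside it, 93 pieces of 1800 bp without H3K4me1 had 8.5, 9.5, 2 and 4.5. At the upper limit there were 2 members of 14800 bp with 17.5, 20.75, 10.75 and 7.5 tags, and 2 pieces of 15000 bp with 29, 22.75, 15.25 and 12.75.

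Members were then compared with the 620 pieces set aside for H3K4me1. Their median log2 fold enrichment at the summit, on the scale of the authors' MACS2 value with 1 for a region without a peak, was lower in each of the 8 libraries, by -0.23 on average and from -0.32 to -0.16 (exact sign-flip permutation test, p = 0.0078). Among regions with a CpG-rich canonical start, 826 members and 322 other pieces, the difference was 0.0055 with a range of -0.047 to 0.035 (exact p = 0.586). The difference thus did not appear among CpG-rich starts, and 65.6% of the other pieces held a protein-coding start against 45.8% of the members.

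To ask whether loss or inhibition of KDM6B, which removes H3K27me3, widened or raised H3K27me3 where it was always called, the islands that hold the members were compared between groups. Their median width was 8 and 8 kb in siCtrl and 10 and 9.8 kb in siKDM6B33, a difference of 1.9 kb with no overlap of the groups. It was 0.6 kb over members with a CpG-rich start and 3.5 kb over those without a canonical start. The rule was built on these islands, so the widths carry no test. The islands of both knockdown libraries were wider than those of both controls at 901 members (37.9%), beside 34.3% of all pieces with the members included and 28.03% of the other 1338 pieces. They were narrower at 263 (11.1%), beside 12.3% and 14.4%. Islands covered more of the genome in the knockdown libraries, and the part of this in the result was not tested.

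With DMSO the median width was 8.4 and 9.2 kb, and with GSKJ4 4.8 and 9.2 kb, a difference of -1.8 kb with overlapping groups. Without GSKJ4 library 1 it was 0.4 kb. Both GSKJ4 islands were wider at 31 members (1.304%), beside 1.53% of all pieces and 1.94% of the others, and narrower at 604 (25.4%), beside 25.0% and 24.2%, counts in which the narrow islands of that library take part.

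Summits were compared as well. Relative to the background of each library, the median log2 summit was 8.12 and 8.10 in siCtrl and 7.80 and 7.83 in siKDM6B33, a difference of -0.30 (exact permutation p = 0.333, the smallest that 2 against 2 libraries allow). It was 7.39 and 7.47 in DMSO and 7.11 and 7.07 in GSKJ4, a difference of -0.34 (exact permutation p = 0.333). On the scale of the authors' fold enrichment the knockdown difference was 0.040 and the compound difference -0.0036, so the direction of the knockdown difference depends on the scaling. With the median of the other pieces taken off in each library the differences were 0 and -0.096, and among the members with a peak in all 8 libraries they were -0.46 and -0.60. Background tags per position, which rise with the tags in a library, were higher in both knockdown libraries than in both controls (0.0539 and 0.0529 against 0.0395 and 0.0401) and in both GSKJ4 than in both DMSO libraries (0.0507 and 0.0371 against 0.0298 and 0.0338). Their part in the result was not tested.

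Single regions were tested with limma on the log2 fold enrichment of the highest peak, over the 2774 pieces with a peak in at least 4 libraries, of which 1823 were members. After knockdown 9 members were higher and 4 lower at an adjusted p under 0.05, beside 0.505% and 0.288% of all pieces tested. After GSK-J4 32 were higher and 23 lower, beside 1.73% and 1.01%. Their balance turned without GSKJ4 library 1 (54 higher and 111 lower) and with genome background scaling (24 and 29), and it was 124 and 41 without DMSO library 2. The knockdown effect lay above the compound effect at 18 members and below it at 19, beside 0.829% and 1.08% (limma interaction contrast), and these were 71 and 37 without GSKJ4 library 1 and 28 and 73 without DMSO library 2. The calls came from peaks that were present in one group and absent in the other. A region with peaks in 4 libraries passed the filter through the groups where it was high, and its fold was set to 1, without spread, in the others. The counts are therefore given as a description, and no fold or p is given for single genes. STXBP2, which encodes a protein of vesicle release, had 9 and 6 tags in siCtrl, 9 and 9 in DMSO and no peak in any treated library. BAIAP2L1, which encodes an actin-binding adaptor, had no peak in either control group, 7 and 10 tags in siKDM6B33 and 5 and 7 in GSKJ4. CACNA1D, a calcium channel gene, had 13 and 11 tags in siCtrl, 8 and 8 in siKDM6B33, none in DMSO and 4 and 4 in GSKJ4. Among the 974 members with a peak in all 8 libraries limma called none in either contrast, with 53 higher and 47 lower after knockdown and 42 higher and 45 lower after GSK-J4 at an unadjusted p under 0.05. With the replicate number as a block it called none either (36 and 20, and 70 and 47, at an unadjusted p under 0.05).

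H3K4me1 islands, which the rule kept off the members in siCtrl, lay over many of them in the other 6 libraries. The share of members overlapped was 35.2% and 35.1% in siKDM6B33, 41.4% and 24.3% in DMSO and 24.6% and 28.8% in GSKJ4. The 0% of siCtrl was fixed by the rule, so the knockdown difference has no test, and the DMSO controls had shares of the same order. GSKJ4 and DMSO overlapped, with a difference of -6.14 percentage points (exact permutation p = 1). Narrow H3K4me1 peaks, called on the same libraries, lay in 27.5% and 26.4% of members in siCtrl, 53.9% and 54.1% in siKDM6B33, 45.9% and 33.9% in DMSO and 39.4% and 40.5% in GSKJ4. The siCtrl shares are not free of the rule, which kept islands of those libraries out, and its part in them was not tested. The island lists differed in length, from 67.4 to 113 Mb. With each cut to the shortest, the highest scores first, the shares were 7.78% and 7.53% in siKDM6B33, 28.7% and 24.3% in DMSO and 16.4% and 19.6% in GSKJ4.

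These H3K4me1 islands differed in share between the CpG classes. They lay over 63.4% and 63.6% of CpG-rich members in siKDM6B33, 63.7% and 41.4% in DMSO and 40.9% and 46.9% in GSKJ4. Of members without a canonical start they overlapped 18.1% and 17.8%, 27.03% and 13.0%, and 14.3% and 17.3%. The mean difference was 35.4 percentage points, from 26.6 to 45.8 over the 6 libraries (exact sign-flip permutation test, p = 0.031, the smallest that 6 libraries allow). Against CpG-poor starts it was 13.6 points, from 5.72 to 23.5 (same exact test, p = 0.031, and 0.031 for both after adjustment over the 2). Of 1108 members without an H3K4me1 island in any of the 6 libraries 149 were CpG-rich, and of 324 with one in all 6, 213 were. In siCtrl, narrow H3K4me1 peaks also differed between the classes. They lay in 42.6% and 37.9% of CpG-rich, 28.0% and 34.4% of CpG-poor, and 18.6% and 18.8% of members without a canonical start.

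**Figure D4:**
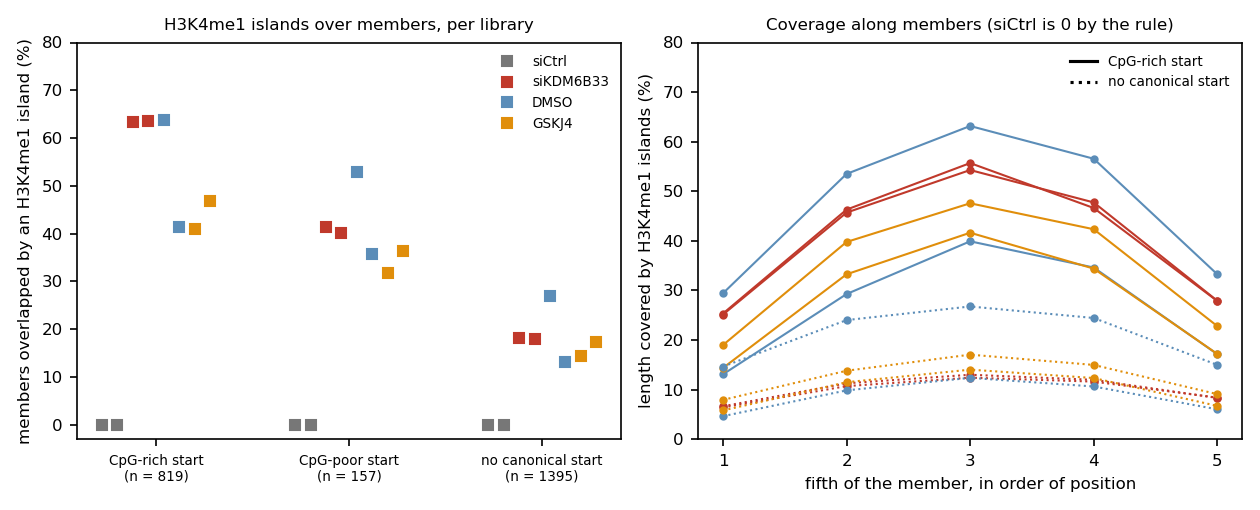
Percent of members overlapped by an H3K4me1 island in each library, by the CpG class of the start (left), and percent of the length of each of 5 equal parts of the member, in order of position, under H3K4me1 islands in the 6 libraries outside siCtrl (right). CpG-rich members stood at 40.9% to 63.7% and members without a canonical start at 13.0% to 27.03%, and coverage was highest in the middle part.

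The H3K4me1 islands covered more of the middle of the members than of their edges. In CpG-rich members they covered 39.9% to 63.2% of the middle of 5 equal parts and 13.1% to 33.2% of the outermost parts. The share also went with the height of H3K27me3. Of 387 members without an H3K27me3 narrow peak in siCtrl, 1.03% to 2.84% were overlapped by H3K4me1 over the 6 libraries. The range was 2.74% to 14.95% for 729 members with a mean siCtrl summit of at most 10 tags, 26.0% to 57.7% for 813 up to 20 tags and 74.4% to 93.5% for 449 above. In the last class CpG-rich starts had 82.1% to 95.7%, CpG-poor starts 80.5% to 92.7% and members without a canonical start 59.3% to 90.0%, so the order by summit held within each class of start. Between 10 and 20 tags the ranges were 27.5% to 60.7%, 27.8% to 66.7% and 22.8% to 52.4%, so the ranges of CpG-rich and CpG-poor starts overlapped. Above 0 and up to 10 tags they were 3.05% to 40.5%, 2.13% to 17.0% and 2.55% to 10.4%. Members with an H3K4me1 island in both siKDM6B33 libraries, 772, lay a median 121.2 kb from the nearest siCtrl H3K4me1 island and the others 92.7 kb. Within 2 kb of such an island lay 2.72% and 2.30%.

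By gene group, 7 of 9 members with mesenchymal-state starts and 5 of 6 with WNT starts had an H3K4me1 island in all 6 libraries, as had 14 of 34 with homeobox starts outside the HOX clusters. Of the 1090 members with any protein-coding start 262 had one in all 6 and 249 in none. Groups below that share in all 6 included FOX starts (1 of 13 members), HOX starts (1 of 7) and receptor channels (2 of 11). The 7 keratin members had none. At SOX14 H3K4me1 islands covered 86.3% and 80.8% of the member in siKDM6B33, 86.3% and 74.0% in DMSO and 71.2% and 79.5% in GSKJ4. At BMP2, a BMP ligand gene, they covered 75% and 87.5% in siKDM6B33 and 100% in each of the other 4 libraries. At INSM1 they covered 100% and 100%, 81.8% and 100%, and none in GSKJ4. At PTF1A, a pancreatic bHLH gene in a member of 13 kb, they lay in DMSO library 1 only.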

How the data were processed

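BE2C cells were profiled by CUT&Tag for H3K27me3 and H3K4me1, with 2 libraries per mark and group, which the study describes as biological replicates. According to the study's methods reads were aligned to hg19 with BWA 0.7.12, duplicates were marked with Picard 1.65, fragments of set length were kept with SAMtools 1.3.1, narrow peaks came from MACS2 (2.1.1 in the submitters' processing notes) and islands from SICER 1.1 with a window of 200 bp, without pooling. The notes also name Trim Galore 0.4.4 and bedtools 2.25.0. The deposited island files give a score per island, used only to shorten lists. The narrow peak files the authors deposited give a fold enrichment ratio at the summit and its p-value as −log10, and no read counts. Spike-in scaling used by the authors was not used here.

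The summit pileup was solved from the fold and the −log10 p as deposited, and the genome background of a library was the lowest expected pileup among its 20 commonest pairs of values. Depth is unknown, so no counting interval is given. Islands of the 8 libraries were intersected in windows of 200 bp. Genes were those of GENCODE lifted to GRCh37, counted once if any transcript started in a member. Regions were tested with limma 3.58.1 (R 4.3.3) on log2 fold (1 without a peak), centred on library medians, with Benjamini-Hochberg adjustment over 2774 pieces, and libraries with exact two-sided permutation tests (Python 3.11.15, SciPy 1.17.1). Scripts were tested on simulated data.

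Members, gene lists and tests were chosen with earlier results of these data known. Genes named with values were up to 4 per list in the widest members, the 10 widest with a start, the adrenergic factors, and up to 5 per direction called by limma. Others (RUNX1, YAP1, MEOX2, FOSL1, OTX2, IRF4 and CDC20B among them) are named from list counts or loci after their values were seen. Some genes and sequences that meet these rules are not reported here. Alternatives were the width limit, joined islands, equal list lengths, filters, scalings, the replicate block and leaving out each library.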

Additional observations from a re-analysis of the deposited data

Results flagged for a closer look

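The limma interaction contrast compared the effects of knockdown and of GSK-J4 on H3K27me3 fold enrichment, and called 37 of the 1823 members tested. The knockdown effect was above the compound effect at 18 of them, beside 0.829% of the 2774 pieces, and below it at 19, beside 1.08%, so the counts lie near the background. Without 1 siRNA library 3 to 9 were called, without 1 library of the compound experiment 67 to 108, and with the replicate block 0. A fold was set to 1, without spread, where no peak was reported, so the calls are a description and no fold is given for single genes. LRRC3, which passed the filter on peaks only through the groups where it was high, had no peak in siCtrl, 8 and 12 tags in siKDM6B33, 5 and 4 in DMSO and none in GSKJ4. PODXL, a podocyte sialomucin gene, had 11 and 13, 12 and 10, and 7 and 8 tags and none in GSKJ4. COBL had 13 and 14, 13 and 15, none in DMSO, and 5 and 6. Among members with a peak in all 8 libraries the contrast called none, with 45 higher and 31 lower at an unadjusted p under 0.05 by limma, and the cause of the differences was not tested.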

How the results depend on the processing

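Leaving out members with an H3K4me1 island in DMSO too, in place of siCtrl alone, reduced the 1095 genes with a start in a member to 426. The other ways of making members gave 802 to 1129, and leaving out a library 1099 to 1147. The knockdown difference in island width ranged from 1.8 to 2.0 kb without a library. The compound difference ranged from -4.0 to 0.4 kb, the last without GSKJ4 replicate 1. With islands within 2 kb joined first these differences were 3.25 and -1.4 kb. With the mean in place of the median they were 3.28 and -3.11 kb, and with a lowest width of 3 kb 2.4 and -1.9 kb. The knockdown difference in log2 summit over background (-0.31 to -0.28 without a library) was 0.040 on the fold as deposited, and the compound difference ranged from -0.38 to -0.30. The 13 members called after knockdown were 57 with no filter on peaks, 0 with a peak in all 8 libraries, 4 with quantile normalization, 0 with the replicate block, 22 with 4 libraries alone and 12 to 20 without a library. The 55 called after GSK-J4 were 0 with a peak in all 8 libraries, 0 with quantile normalization, 0 with the replicate block and 64 to 165 without a library. The 37 of the interaction were 3 higher and 2 lower with log2(fold + 1), 2 higher and 0 lower with quantile normalization, 9 and 5 with genome background scaling, 56 and 31 with no filter on peaks, 0 with the replicate block and 3 to 108 without a library. The replicate numbers were taken from the labels, and deviations of libraries with the same number correlated at 0.0024 (siRNA) and -0.0044 (compound). With 2 libraries per group this cannot show whether equal numbers share a culture or batch. Scaling by genome background shifted the median of all pieces by -0.40 and -0.48 on the log2 scale.

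The GSKJ4 minus DMSO share of members with H3K4me1 was 0.021 points with narrow peaks and -14.7 to 2.42 without a library, with 2.42 without DMSO replicate 1. With the H3K4me1 lists cut to the shortest, both GSKJ4 shares (16.4% and 19.6%) lay below both DMSO shares (28.7% and 24.3%). The knockdown share of 35.2% was 7.65% with all 8 H3K4me1 lists at the shortest length. Members minus H3K4me1 pieces was 0.0055 among CpG-rich starts and -0.24 to -0.22 without a library. The H3K4me1 difference by CpG class ranged from 33.3 to 37.1 points without a library, where 5 libraries allow no exact p under 0.0625. The settings on narrow peaks, CpG-rich starts, list length and CpG class were chosen after seeing the data. Depth, which is unknown, limits the presence of a peak, on which the limma calls rest.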
